A study of Mus musculus with 30 samples.

Results

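The genes described here are 6 genes of the mouse germ line, Dazl, Piwil2, Mageb16, Ddx4, Mael and Sycp3, out of 19082 genes that carried a symbol on the array. They were chosen by gene symbol, and each had 1 probe. Piwil2 and Ddx4 had values in all 30 samples, Mageb16 in 26, Dazl in 23, and Mael and Sycp3 in 10. On the RefSeq assembly GRCm38.p6, Dazl lies at chr17:50279393-50293620, Piwil2 at chr14:70372477-70436898, Mageb16 at chrX:79623231-79671435, Ddx4 at chr13:112598333-112652633, Mael at chr1:166201385-166238744 and Sycp3 at chr10:88459587-88473236. Which exon each probe matches is not given in the sources used here.

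The study compared mouse cells reprogrammed with small molecules with embryonic stem cells and with the cells they came from, and it measured total RNA on a whole-genome oligonucleotide array. The 11 chemically induced pluripotent stem cell lines (CiPSC) are named here with the codes of their treatment, in which V is valproic acid, C is CHIR99021, 6 is a TGF-beta receptor inhibitor, T is tranylcypromine, F is forskolin and Z is DZNep. The letters M, P, S, D, B and R stand for further parts of the treatment that are not spelled out here. CiPS34 (VC6TFMP+Z), MNF CiPS7 (VC6TFS+Z), CiPS50 (VC6F+Z) and CiPS21 (VC6TFDBS+Z) were measured in set 1 of 5 sets of samples. MNF CiPS1 (VCT6FMDBR+Z), MAF CiPS3 (VC6TFDM+Z), CiPS45 (FC6+Z) and ADSC CiPS2 (VC6TFMPS+Z) were in set 2, CiPS WT1 and CiPS WT2 (both VC6TFMPS+Z) in set 3, and the line labelled CiPSC control (VC6TF+Z) in set 5. The source field of ADSC CiPS2 names adult lung fibroblasts, whereas its title and line name adipose-derived stem cells. The other induced lines were 2 made with the factors Oct4, Sox2, Klf4 and c-Myc (OSKM iPS1 in set 1 and OSKM iPS2 in set 2) and 2 made from embryonic fibroblasts and labelled SKM-FSK with treatment F (set 4). Fibroblasts under treatment were sampled at day 12 (VC6TF), day 20 and day 32 (both VC6TF+Z), 1 sample each, in set 5. There were 5 embryonic stem cell (ESC) samples, 1 per set, of which ESC2 was of line TT2 and the other 4 of line R1. The 7 somatic samples were mouse embryonic fibroblasts (MEF1, WT MEF, MEF2 and MEF3 in sets 1, 3, 4 and 5) and neonatal fibroblasts (MNF), adult lung fibroblasts (MAF) and adipose-derived stem cells (ADSC) in set 2. Of the somatic samples, only WT MEF is titled wildtype. Somatic cells grew in serum medium without feeders, and all pluripotent lines were kept on mitomycin C-treated MEF feeders, so their RNA may hold a feeder share.

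The authors normalized the 5 sets separately, so levels were compared within a set, or through a fit with set as a term. Sample medians lay at 326 to 328 in set 1 and 357 to 359 in set 2, and every value below is a normalized intensity on a linear scale unless a log2 difference is named. The summed intensity of up to 13 fibroblast markers, as a percentage of the somatic samples of the same set, was 0.471 to 12.3% in CiPSC, 0.617 to 2.37% in OSKM iPSC, 0.312 to 0.326% in SKM-FSK iPSC and 0.373 to 5.19% in ESC, against 72.6 to 142% in somatic samples. The highest CiPSC values were those of CiPS WT1 (10.4%) and CiPS WT2 (12.3%). Up to 9 pluripotency markers summed to 57.5 to 142% of ESC in CiPSC, against 0.557 to 1.90% of ESC in somatic samples. In such bulk RNA, fewer cells that express a gene and less RNA per cell cannot be told apart.

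Germ cell genes act in primordial germ cells, in meiosis and in the defence of the germ line against transposons, and most are silent in fibroblasts. Many carry CpG-rich promoters that are methylated in somatic tissues, and a set of repressors holds them down in embryonic stem cells, where some are nevertheless transcribed. Dazl binds mRNA and promotes its translation in germ cells. Piwil2, also called Mili, is a PIWI protein that binds piRNAs, and Mael is a factor of the same transposon-silencing pathway. Ddx4, also called mouse vasa homolog, is a DEAD-box RNA helicase of germ granules, Sycp3 is part of the axial element of meiotic chromosomes, and Mageb16 is an X-linked member of the melanoma antigen family.

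Promoter windows of 250 bases before to 50 bases after the start were in the RefSeq table (GRCm38.p6) for 5 of the 6 genes, all but Piwil2. They are shown for 3 genes whose signal was high in the pluripotent lines and for Ddx4, whose signal was not called different, because the 4 windows differ widely in CpG dinucleotides, the sites of methylation, which are in capitals. The windows are chr17:50293571-50293870 for Dazl, chrX:79671386-79671685 for Mageb16, chr1:166238695-166238994 for Mael and chr13:112652261-112652560 for Ddx4, all on the minus strand, and the Ddx4 window follows a transcript start inside the outer bound of the gene.
Dazl: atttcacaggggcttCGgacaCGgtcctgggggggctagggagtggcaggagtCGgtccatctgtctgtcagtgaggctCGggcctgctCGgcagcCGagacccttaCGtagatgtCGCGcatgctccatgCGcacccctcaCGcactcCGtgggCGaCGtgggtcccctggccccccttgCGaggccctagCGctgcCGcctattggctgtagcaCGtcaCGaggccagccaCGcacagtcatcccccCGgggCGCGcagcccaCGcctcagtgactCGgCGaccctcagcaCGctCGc
Mageb16: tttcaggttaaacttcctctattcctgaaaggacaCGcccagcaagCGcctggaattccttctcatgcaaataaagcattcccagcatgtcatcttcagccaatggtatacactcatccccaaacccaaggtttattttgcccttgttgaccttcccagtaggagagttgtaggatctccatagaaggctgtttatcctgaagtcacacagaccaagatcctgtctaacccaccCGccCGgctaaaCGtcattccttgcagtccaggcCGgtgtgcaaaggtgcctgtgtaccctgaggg
Mael: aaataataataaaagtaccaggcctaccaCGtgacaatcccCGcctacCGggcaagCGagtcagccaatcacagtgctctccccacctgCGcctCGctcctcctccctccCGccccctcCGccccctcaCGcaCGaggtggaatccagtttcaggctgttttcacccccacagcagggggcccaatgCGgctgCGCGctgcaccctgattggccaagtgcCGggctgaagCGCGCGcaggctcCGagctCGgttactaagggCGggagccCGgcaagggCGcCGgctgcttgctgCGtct
Ddx4: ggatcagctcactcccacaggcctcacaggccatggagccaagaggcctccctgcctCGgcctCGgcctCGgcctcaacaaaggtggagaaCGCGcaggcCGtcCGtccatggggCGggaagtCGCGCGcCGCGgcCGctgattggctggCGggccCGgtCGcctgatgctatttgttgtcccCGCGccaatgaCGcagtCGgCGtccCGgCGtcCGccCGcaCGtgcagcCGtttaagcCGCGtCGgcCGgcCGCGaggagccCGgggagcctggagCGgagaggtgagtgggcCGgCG

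The Dazl window held 28 CpG, and 14.2% of the 32851 windows in the table held at least as many. Mael held 24 (20% of windows held at least as many), Ddx4 held 38 (4.95%), Sycp3 held 15 (34.6%) and Mageb16 held 6 (56.4%), close to the median of 7. Of the genes with a high pluripotent signal, Dazl and Mael had CpG-rich windows and Mageb16 did not, while Ddx4 and Sycp3 were both above the median. After the sequences had been read, 3 motifs were searched on both strands. The E-box CACGTG, which reads the same on both, was present in 7.15% of all windows and lay 29 bases before the start in Ddx4, 223 bases before it in Mael and 64 and 43 bases before it in Sycp3. The E2F-type site GCGGGA, in 20% of all windows, lay 136 bases before the start in Ddx4, 143 bases before it in Mael and 147 bases before it in Sycp3, with another in Mael 11 bases past the start. The octamer ATGCAAAT, in 1.74% of all windows, lay 186 bases before the start in Mageb16. No match overlapped one of another motif, and none of the 3 motifs was in the Dazl window. Such a match describes letters in the window and no binding.

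Dazl, the mRNA-binding translation factor, was brighter in every CiPSC line than in the somatic samples of its set, with set means 39.7- and 53.6-fold higher in sets 2 and 5 and at least 43.3-fold higher in set 3, where WT MEF was below 16 and was set to it. In set 2 its intensity was 910 in MNF CiPS1, 837 in MAF CiPS3, 1873 in CiPS45 and 2848 in ADSC CiPS2, against 38.5 in MNF, 30.2 in MAF and 39.5 in ADSC. In set 3 it was 613 in CiPS WT1 and 783 in CiPS WT2, against 15.9 in WT MEF, and in set 5 it was 2809 in CiPSC control, against 52.4 in MEF3. The CiPSC and somatic values did not overlap in any of the 3 sets. ESC read 1836 in set 2, 1016 in set 3, 9048 in set 4 and 4952 in set 5, the last 2 against 54.1 in MEF2 and 52.4 in MEF3. The fitted log2 difference from somatic samples was 5.53 ± 0.31 in CiPSC (SE, adjusted p = 7.4e-10, limma, 7 lines against 6 samples) and 6.31 ± 0.35 in ESC (adjusted p = 1.6e-09, 4 against 6).

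The other induced lines lay on both sides of these values. The 2 SKM-FSK lines had the brightest Dazl signal of set 4, 11682 and 17264, against 9048 in ESC4 and 54.1 in MEF2, a fitted log2 difference from somatic samples of 7.50 ± 0.56 (SE, adjusted p = 6.6e-07, limma, 2 lines). OSKM iPS2 read 239, the lowest of the 6 pluripotent samples of set 2, at 0.130 of ESC2, yet 6.67-fold above the mean of the 3 somatic samples of that set. Dazl had no value in set 1, so this was the sole OSKM line measured. No test was made, since this comparison required at least 2 sets holding both groups.

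Piwil2, the PIWI protein, was measured in every sample and was brighter in all 11 CiPSC lines than in any somatic sample of the same set. In set 1 it read 1655 in CiPS34, 2013 in MNF CiPS7, 1154 in CiPS50 and 784 in CiPS21, against 42.2 in MEF1. In set 2 it read 1175 in MNF CiPS1, 1899 in MAF CiPS3, 543 in CiPS45 and 1443 in ADSC CiPS2, against 44.8 in MNF, 92.2 in MAF and 59.6 in ADSC. The line with the fewest compounds, CiPS45 (FC6+Z), had the lowest Piwil2 signal of the 4 CiPSC lines of its set but the second highest Dazl signal. In set 3 Piwil2 read 1397 in CiPS WT1 and 672 in CiPS WT2, against 24.6 in WT MEF, and in set 5 it read 1995 in CiPSC control, against 83.4 in MEF3. The fitted log2 difference was 4.66 ± 0.33 (SE, adjusted p = 3.2e-10, limma, 11 lines against 7 samples), and the 4 differences within sets spanned 4.20 to 5.30.

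In ESC, Piwil2 read 632, 1895, 259, 745 and 1758 in sets 1 to 5, a fitted log2 difference from somatic samples of 4.01 ± 0.38 (SE, adjusted p = 4.3e-08, limma, 5 against 7). OSKM iPS1 read 386 and OSKM iPS2 1346, both under the ESC sample of their set, with a fitted difference of 3.79 ± 0.53 from somatic samples (adjusted p = 1.7e-05, limma). The SKM-FSK lines read 1878 and 1588, against 65.7 in MEF2, with a fitted difference of 4.97 ± 0.67 (adjusted p = 3.5e-05, limma). All 3 kinds of induced line and ESC were therefore above the somatic samples in each set that held them.

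Mageb16, the X-linked melanoma antigen family member, showed the largest difference of the 4 tested genes between CiPSC and somatic samples. In set 1 it read 4147 in CiPS34, 4524 in MNF CiPS7, 6424 in CiPS50 and 2746 in CiPS21, against 40.2 in MEF1. In set 2 the 4 CiPSC lines lay close together at 3839, 4049, 4007 and 4331, against 55.4 in MNF, 20.6 in MAF and 18.2 in ADSC. In set 5 it read 3040 in CiPSC control, against 1.83 in MEF3. The spread among CiPSC lines within sets, as a pooled SD of log2 values, was 0.36 for Mageb16, below the 0.75 for Dazl, 0.70 for Piwil2 and 0.83 for Ddx4. Its fitted log2 difference was 7.66 ± 0.48 (SE, adjusted p = 4.2e-10, limma, 9 lines against 6 samples), and it was 7.00 without MEF3 and 6.72 once 13.9 had been added to each intensity.

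ESC read 3022, 3611, 6289 and 6219 for Mageb16 in sets 1, 2, 4 and 5, a fitted difference of 7.79 ± 0.57 from somatic samples (SE, adjusted p = 5.0e-09, limma, 4 against 6) that was 6.78 with that addition. The SKM-FSK lines read 8858 and 7409, against 59.2 in MEF2 (7.62 ± 0.92, adjusted p = 1.9e-05, limma). OSKM iPS1 read 2479 and OSKM iPS2 3708 (7.12 ± 0.73, adjusted p = 8.1e-07, limma). The differences within sets were lower than these fitted values, at 5.94 and 7.08 in OSKM iPSC (sets 1 and 2) and 7.10 in SKM-FSK iPSC (set 4). Without MEF3 the fitted OSKM difference was 6.61. Each pluripotent sample that measured Mageb16 was above every somatic sample of its set.

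Ddx4, the vasa homolog, did not follow the same pattern: its probe read above 200 in all somatic samples, and CiPSC means were above somatic samples in sets 1 and 2 and below them in sets 3 and 5. By rank, 37.7 to 80.9% of the features of a somatic sample lay below Ddx4, and its distance from probe background was not tested. In set 1 it read 640 in CiPS34, 274 in MNF CiPS7, 218 in CiPS50 and 189 in CiPS21, against 204 in MEF1. In set 2 it read 347 in MNF CiPS1, 1440 in MAF CiPS3, 482 in CiPS45 and 1094 in ADSC CiPS2, against 306 in MNF, 264 in MAF and 203 in ADSC. Set 2 was thus the sole set in which every CiPSC line was above every somatic sample. In set 3 it read 240 in CiPS WT1 and 162 in CiPS WT2, against 254 in WT MEF, and in set 5 it read 578 in CiPSC control, against 1218 in MEF3, the brightest somatic sample. The fitted log2 difference was 0.55 ± 0.37 (SE, adjusted p = 0.25, limma), and it was −0.19 without set 2.

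ESC read 224, 1026, 231, 540 and 352 for Ddx4 in sets 1 to 5, a fitted difference of 0.29 ± 0.44 from somatic samples (SE, adjusted p = 0.63, limma). OSKM iPS1 read 201 and OSKM iPS2 476 (0.12 ± 0.61, adjusted p = 0.92, limma). The SKM-FSK lines had the brightest Ddx4 signal of set 4, 1964 and 2315, against 540 in ESC4 and 611 in MEF2. The difference within set 4 was 1.80, and the fitted difference of 2.04 ± 0.77 from somatic samples did not pass the threshold (adjusted p = 0.080, limma). Without MEF3 it was 2.21 (adjusted p = 0.023) and without set 5 it was 2.25 (adjusted p = 0.024). Of 23 alternatives, 20 left it uncalled, and the fitted values spanned 1.65 to 2.61.

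Mael and Sycp3 had values in sets 4 and 5. Mael, the piRNA pathway factor, read 1327 and 1901 in the SKM-FSK lines, against 753 in ESC4 and 45.4 in MEF2, and 1014 in CiPSC control, against 617 in ESC5 and 62.6 in MEF3. Within sets the mean Mael signal of each pluripotent group was 9.85- to 35.0-fold above the fibroblasts. Sycp3, the axial element protein, read 112 and 75.5 in the SKM-FSK lines, against 33.2 in ESC4 and 31.5 in MEF2. In set 5 it stayed under 16 everywhere, at 3.67 in CiPSC control, 5.75 in ESC5 and 1.83 in MEF3. With 2 residual degrees of freedom both fell under the minimum of 3, and a fit with that minimum lowered after the values were seen gave Mael 3.68 ± 0.47 in ESC (SE, adjusted p = 0.0030, limma) and 4.94 ± 0.53 in SKM-FSK iPSC (adjusted p = 0.0043), and Sycp3 0.86 ± 0.57 in ESC (adjusted p = 0.30) and 1.94 ± 0.63 in SKM-FSK iPSC (adjusted p = 0.13).

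**Figure D1:**
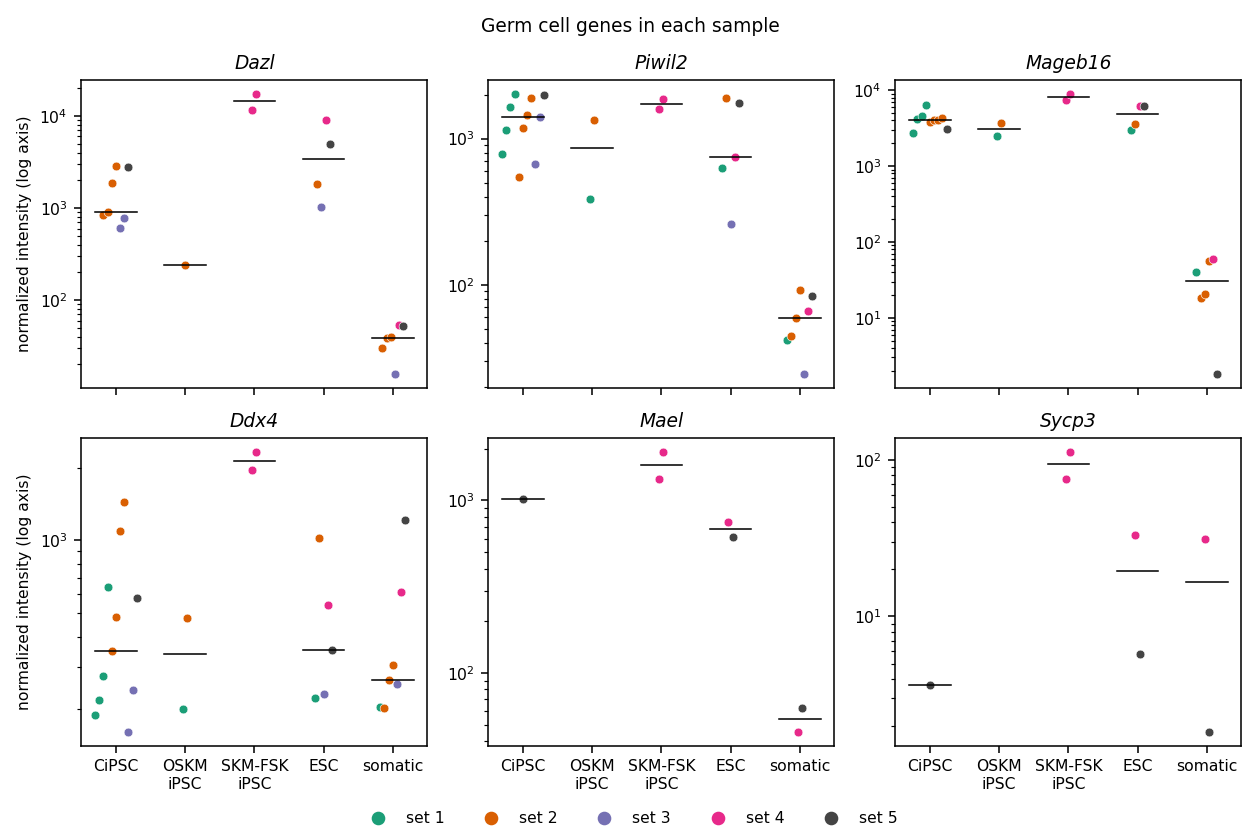
Normalized intensity (log axis) of the 6 genes in the 4 pluripotent groups and the somatic samples, with 1 point per sample, coloured by set, and a bar at the group's median across sets that were normalized separately. Dazl, Piwil2, Mageb16 and Mael separate every pluripotent sample from the somatic samples of its set, while Ddx4 overlaps and Sycp3 is under 16 throughout set 5.

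Counted over the 6 genes, 3 of the 4 tested (Dazl, Piwil2 and Mageb16) were called higher in CiPSC than in somatic samples and 0 lower, where a call is an adjusted p under 0.05 with a change of at least 2-fold. Of all 16497 features tested, which include probes with no gene name, 14.8% were called higher and 13.3% lower. The median log2 difference was 5.09 over the 4 genes and −0.11 over all features. In ESC the same 3 of 4 were called higher and 0 lower, where 15.1% of all features were called higher and 14.2% lower. In OSKM iPSC 2 of the 3 tested (Piwil2 and Mageb16) were called higher (12% of all features), and in SKM-FSK iPSC 3 of 4 (7.3% of all features). Dazl, Piwil2 and Mageb16, but not Ddx4, were above all somatic values in each set that held CiPSC, as were 10.5% of features, and in each set that held ESC, as were 13.9% of features. The members were picked from genes known to be active in the germ line, and with earlier results of these data known. These counts therefore describe the 6 genes and do not rank or test them.

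**Figure D2:**
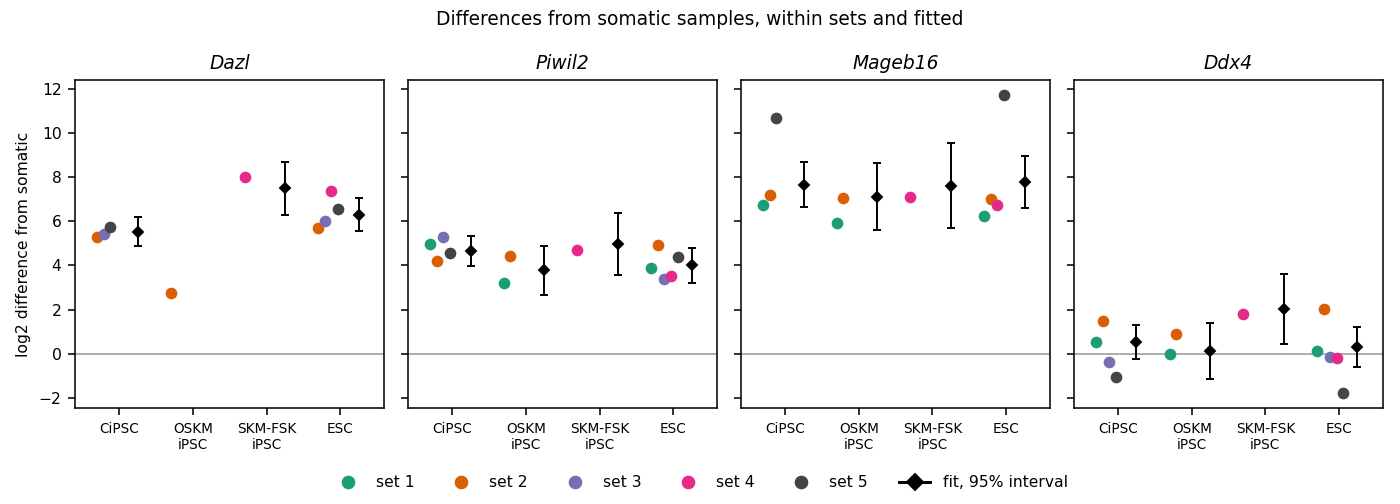
Log2 difference from somatic samples for Dazl, Piwil2, Mageb16 and Ddx4 in the 4 pluripotent groups. Coloured points are differences of mean log2 values within a set, and black diamonds are fitted values with their 95% intervals. For Ddx4 the points within sets lie on both sides of 0, and for Mageb16 those of set 5, where MEF3 read 1.83, are the highest.

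CiPSC were next compared with ESC, which asks how the induced lines stand beside cells of embryo origin. None of the 4 tested genes was called different, and 0.0303% of all features were (5 of 16497, with 819 at an unadjusted p under 0.05). That share was 0 without ESC1 and 0.322% without ESC2, the TT2 sample. Dazl was 0.78 ± 0.36 lower on the log2 scale in CiPSC (95% interval −1.54 to −0.02, adjusted p = 0.995, limma). Within sets the mean of the CiPSC lines was below ESC in all 3, with differences of −0.37, −0.55 and −0.82 in sets 2, 3 and 5. The fit also drew on set 4, which held ESC and no CiPSC. Piwil2 was 0.64 ± 0.37 higher (interval −0.12 to 1.41), Mageb16 differed by −0.12 ± 0.56 (interval −1.30 to 1.05; 0.60 without ESC5) and Ddx4 by 0.26 ± 0.42 (interval −0.61 to 1.14). These intervals leave room for differences of about 2-fold in at least one direction for each gene.

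Single lines departed from the ESC sample of their set by more than those means. For Piwil2 the ratio of a CiPSC line to its ESC sample spanned 0.287 in CiPS45 to 5.39 in CiPS WT1, and 8 of 11 lines were above ESC. Within sets, the Piwil2 log2 difference between CiPSC and ESC was 1.06, 1.90 and 0.18 in sets 1, 3 and 5, whose ESC line was R1, and −0.72 in set 2, whose ESC line was TT2. Leaving out the TT2 sample gave a fitted difference of 0.98 (adjusted p = 0.41, limma). For Dazl the ratios spanned 0.456 in MAF CiPS3 to 1.55 in ADSC CiPS2, with 2 of 7 lines above ESC. For Mageb16 they spanned 0.489 in CiPSC control to 2.13 in CiPS50, with 7 of 9 lines above ESC and 7 of 9 within 2-fold of it. The SKM-FSK lines were above ESC4 in all 6 genes, by 3.64- and 4.29-fold for Ddx4, 2.52- and 2.13-fold for Piwil2 and 1.29- and 1.91-fold for Dazl, a comparison with 1 ESC sample and no test.

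**Figure D3:**
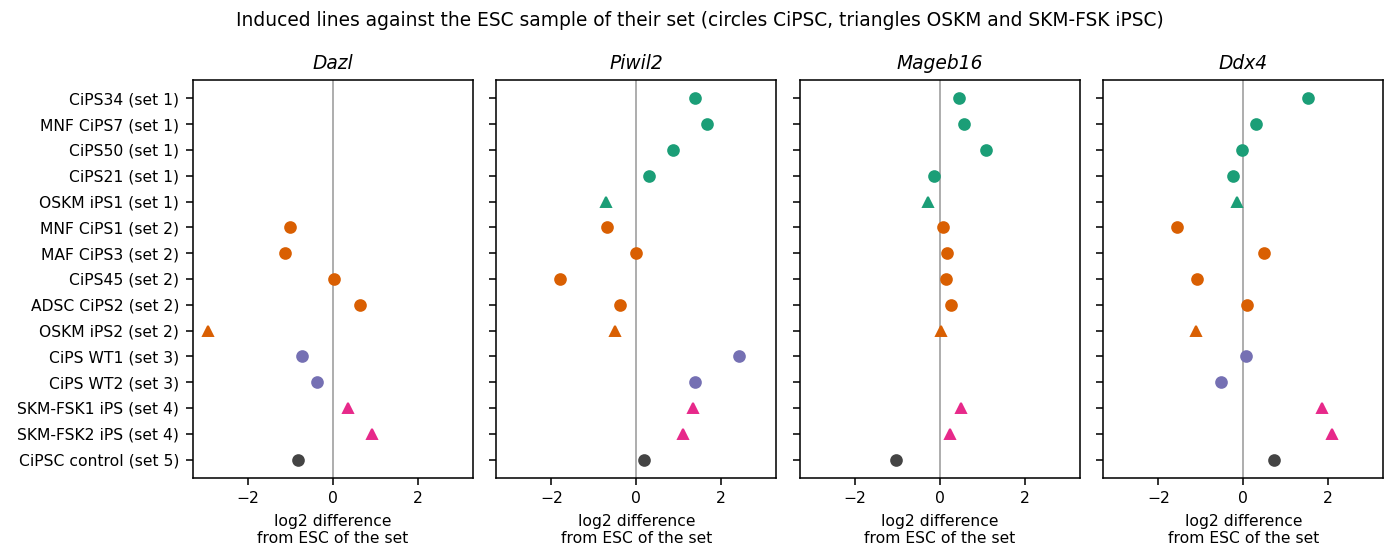
Log2 difference of each induced line from the ESC sample of its set for 4 genes (circles, CiPSC; triangles, OSKM and SKM-FSK iPSC; colours, sets). Most Mageb16 points lie within 1 of 0, Piwil2 is above 0 in sets 1, 3 and 4 for all CiPSC and SKM-FSK lines and mostly below it in set 2, and Dazl in OSKM iPS2 is the lowest point.

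During treatment Dazl, Piwil2, Mageb16 and Mael stayed far below the level of the finished line through day 32. Dazl read 34.6, 33.4 and 19.5 at days 12, 20 and 32, against 52.4 in MEF3, and Piwil2 read 92.2, 76.4 and 122, against 83.4 in MEF3. CiPSC control, a line made with the same compounds, read 144-fold above day 32 for Dazl and 16.3-fold above it for Piwil2. Mageb16 read 15.2, 18.1 and 20.2, against 1.83 in MEF3, and CiPSC control was 150-fold above day 32. With values below 16 set to 16, the day 32 difference of Mageb16 from MEF3 was 0.34 on the log2 scale, in place of 3.47.

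Ddx4 and Mael, like Dazl, had their lowest levels of set 5 at day 32. Ddx4 read 420, 343 and 206 at days 12, 20 and 32, against 1218 in MEF3, a log2 difference of −2.56 at day 32, and was at 72.7, 59.3 and 35.7% of the 578 in CiPSC control. Mael read 36.0, 26.6 and 24.2, against 62.6 in MEF3, and was 42.0-fold lower at day 32 than in CiPSC control. Sycp3 read 1.08, 0.10 and 0.68, and like CiPSC control (3.67) was under 16. These are single samples with no test.

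Taking a change of at least 2-fold with values below 16 set to 16, 0 of the 6 genes were higher than in MEF3 at days 12, 20 or 32, where 20.5, 21.4 and 24% of the 23609 features of set 5 were. Lower by that measure were 1 of 6 at day 12 (Ddx4; 25.9% of features), 2 of 6 at day 20 (Ddx4 and Mael; 27.2%) and 3 of 6 at day 32 (Dazl, Ddx4 and Mael; 29.7%). In the same samples the summed fibroblast markers were at 258, 210 and 165% of MEF3. The pluripotency markers were at 0.870, 0.845 and 2.56% of ESC5, and 8 extraembryonic endoderm markers at 78.8, 242 and 598% of MEF3. Bright probes weigh most in such sums, and not every marker followed its sum. Pou5f1 read 220, 262 and 389, against 140.5 in ESC5, and Pdgfrb 2.83, 0.85 and 0.383, against 3803 in MEF3. The Pou5f1 probe read 24.2 in CiPSC control, which was below its reading in MEF3. In set 5 this probe therefore did not separate pluripotent samples from fibroblasts, and its readings during treatment are no measure of pluripotency. The part of these cell mixtures in the levels of the 6 genes was not tested.

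**Figure D4:**
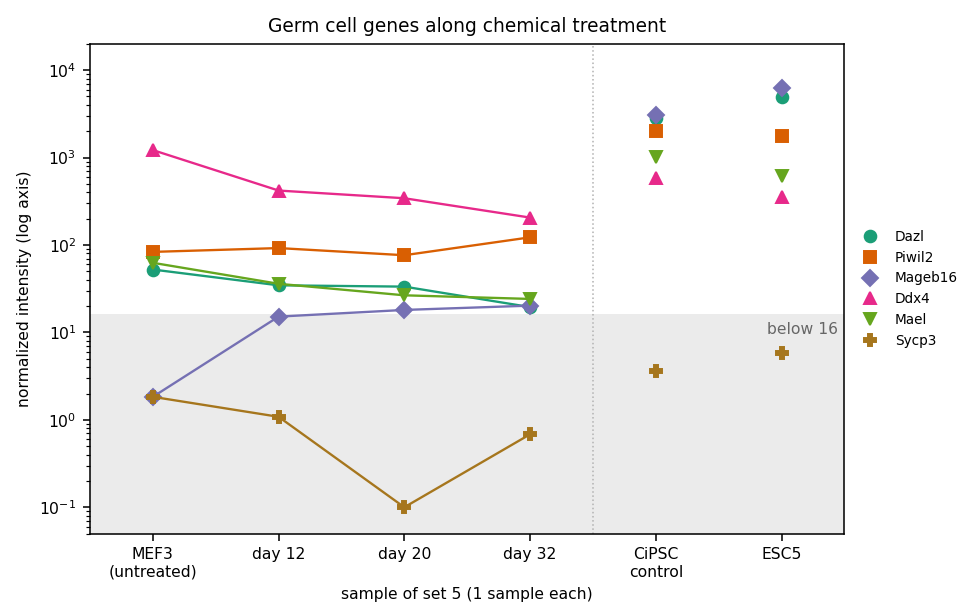
Normalized intensity (log axis) of the 6 genes in set 5: untreated MEF3, days 12, 20 and 32 of treatment, CiPSC control and ESC5, 1 sample each. Dazl, Piwil2, Mageb16 and Mael are at or below 122 through day 32 and at 1014 or more in CiPSC control, and the grey band marks values below 16.

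Genes with roles close to those of the 6 were compared as lists. These lists too were chosen with earlier results of these data known, so their counts are a description. Of 12 tested genes of the piRNA pathway, 5 were called higher in CiPSC than in somatic samples and 1 lower, where 14.8% of all features were called higher and 13.3% lower. The median log2 difference was 0.67, against −0.11 over all features. Tdrd12, a Tudor protein needed for secondary piRNAs, was 4.96 ± 0.23 higher (SE, adjusted p = 5.5e-13, limma), Rnf17, a germ granule Tudor protein, 3.99 ± 0.45 (adjusted p = 2.2e-06), Ddx25, a testis RNA helicase, 2.36 ± 0.72 (adjusted p = 0.012) and Pld6, a mitochondrial protein of piRNA biogenesis, 1.83 ± 0.32 (adjusted p = 0.00021). Tdrd7, also a Tudor protein, was 2.01 ± 0.34 lower (adjusted p = 0.00018), while Tdrd1 (0.99, adjusted p = 0.078) and Tdrd5 (0.35, adjusted p = 0.23) did not pass. The pathway of Piwil2 and Mael was therefore higher in part of its measured members. For Ddx25 the difference within set 5 was 8.41, with MEF3 at 0.167 (1.82 with a floor of 16), against 1.90, 1.13 and 1.91 in sets 1, 2 and 3. For Pld6 the difference was 0.19 within set 5, against 2.02 and 2.29 in sets 2 and 3.

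Of 14 tested meiosis genes, 9 were called higher (14.8% of all features) and 0 lower (13.3%), with a median of 2.77. They included Syce3, a central element protein of the synaptonemal complex (4.00 ± 0.38, SE), Hormad1, a chromosome axis protein (3.55 ± 0.33), Dmc1, the meiotic recombinase (3.50 ± 0.34), and Stag3, a meiotic cohesin subunit (3.45 ± 0.36). Tex11, an X-linked crossover factor, differed by 3.36 ± 0.51, while Spo11, which makes the double-strand breaks (0.86, adjusted p = 0.44, limma), and Msh4 (0.84, adjusted p = 0.057) did not pass. Within sets Spo11 differed by −0.46 in set 2 and by 6.02 in set 5, where MEF3 read 0.167 and a floor of 16 gave 0. Like Sycp3 (3.67), the untested synaptonemal complex genes Sycp2 (6.25), Syce1 (4.83) and Tex12 (4.83), named after their values were seen, were under 16 in CiPSC control. Syce2, a tested gene of that complex, was called higher (2.55 ± 0.28, adjusted p = 1.9e-06, limma) and read 63.4 there. A low reading in this 1 sample is a limited guide, since Tex14, a gene called higher in CiPSC, read 12.6 in it.

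Of 14 tested genes of germ cell RNA binding and specification, 8 were called higher (14.8% of all features) and 0 lower (13.3%), with a median of 2.53. Kit, the stem cell factor receptor, differed by 5.75 ± 0.36 (SE), Tex14, a protein of germ cell bridges, by 5.26 ± 0.64, Taf7l, a germ cell TFIID subunit, by 4.56 ± 0.54, Elavl2, an RNA-binding protein, by 3.93 ± 0.32, and Prdm14, a regulator of primordial germ cell fate, by 3.86 ± 0.36. Tex14 was 0.22 higher within set 5, where both values were under 16. Prdm1, another specification factor (1.49, adjusted p = 0.057, limma), and Boll, a relative of Dazl (0.88, adjusted p = 0.27), did not pass. Boll was uneven between sets: it was 5.03 higher in CiPSC within set 3, against −0.0031 in set 2 and −0.65 in set 5.

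Among relatives of Mageb16 in the melanoma antigen family, 0 of 6 tested genes were called higher (14.8% of all features) and 3 lower (13.3%), with a median of −0.82. Magee1 differed by −2.23 ± 0.19, Mageh1 by −1.40 ± 0.54 and Maged1 by −1.16 ± 0.21 (SE, adjusted p = 4.6e-09, 0.044 and 0.00021, limma), though Mageh1 was 3.31 higher within set 5. Mageb4, the nearest by name to Mageb16, differed by 1.47 ± 0.70 (adjusted p = 0.11), and Magee2 by 0.55 ± 0.22, under 2-fold. Without set 3, 2 of the 6 were called lower. Of 21 listed family members, 13 had values, and among those not tested Magea8, named after its values were seen, read 37.7 in CiPSC control and 1745 in ESC5, against 3.17 in MEF3.

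Of 17 tested genes of the machinery that represses germ line genes, 8 were called higher in CiPSC (14.8% of all features) and 0 lower (13.3%), with a median of 0.94. Dnmt3b, a de novo DNA methyltransferase, differed by 4.43 ± 0.37 (SE), Uhrf1, which directs maintenance methylation, by 2.89 ± 0.38, and Pcgf6 and L3mbtl2, subunits of the polycomb complex PRC1.6, by 2.85 ± 0.34 and 2.72 ± 0.21. Wdr5, a subunit shared by several chromatin complexes, differed by 2.55 ± 0.25, while Hdac2 (0.94) and Ehmt1 (0.87) were under 2-fold. The 9 repressors that were not called included Yaf2 (−0.84, adjusted p = 0.0025, limma), which was lower by less than 2-fold. They also included Ring1 (−0.62, adjusted p = 0.027) and E2f6 (−0.24, adjusted p = 0.39). Yaf2, Ring1 and E2f6 were named after their values were seen.

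In ESC the counts were close to these, where 15.1% of all features were called higher than in somatic samples and 14.2% lower. Called higher were 5 of 12 piRNA pathway genes, 10 of 14 meiosis genes, 8 of 14 RNA binding and specification genes and 8 of 17 repressors. Of 6 genes of the melanoma antigen family 0 were called higher and 2 lower. In the piRNA pathway 1 gene was called lower, and 0 were in the other lists. Both comparisons share the somatic samples. Between CiPSC and ESC no gene of these 5 lists was called, where 0.0303% of all features were. Quantile normalization within sets, median centring and a floor of 16 left the counts of the 5 lists in CiPSC the same. Without CiPS WT1 and CiPS WT2 and the other samples of set 3, the counts of higher genes in CiPSC were again 5, 9, 8 and 8 in the piRNA pathway, meiosis, specification and repressor lists, and without set 5 they were 5, 9, 9 and 6.

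**Figure D5:**
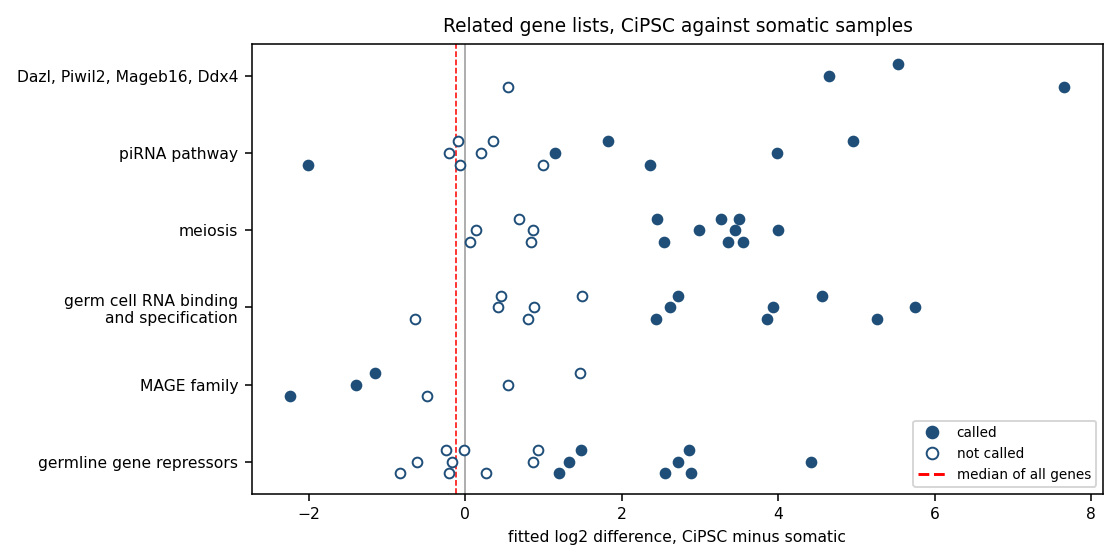
Fitted log2 difference, CiPSC minus somatic, of each tested gene in the 5 related lists, with Dazl, Piwil2, Mageb16 and Ddx4 in the top row (filled, called; open, not called; dashed line, median of all features). The meiosis and specification lists lie mostly to the right of 0, and the melanoma antigen family has 3 called genes to the left.

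The piRNA pathway, meiosis and specification lists held 22 genes called higher in CiPSC that had a value in set 5. By the 2-fold measure with a floor of 16, 4, 4 and 5 of them were higher than MEF3 at days 12, 20 and 32, where 20.5, 21.4 and 24% of all features were, and 8, 5 and 5 were lower, where 25.9, 27.2 and 29.7% of all features were. In CiPSC control 18 of the 22 were higher than in MEF3 and 0 lower. The share of all features was not counted for that sample, so this count has no background beside it. Kit read 555, 4762 and 20933 at days 12, 20 and 32 and 11093 in CiPSC control, against 216 in MEF3. Elavl2 read 1498, 1514 and 728 at those days and 1232 in CiPSC control, against 143 in MEF3. Tdrd12 was like Dazl and Mael in this respect, at 55.8, 58.7 and 40.0 during treatment and 1510 in CiPSC control, against 136 in MEF3. The 22 were chosen by a fit that includes MEF3 and CiPSC control, so their values there are a description.

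The genes whose profiles were most like those of the 6 were found by Pearson's correlation of log2 values centred within sets, which describes these samples and is given without a test since the points share sets and groups. Over 23 samples Dazl was most like Triml2 (r = 0.964), Cidea (0.963) and Dmrt1 (0.958), the last a transcription factor of testis and germ cells. Over 30 samples Piwil2 was most like Suv39h2, a histone H3 lysine 9 methyltransferase (r = 0.955), Dna2 (0.951) and 1700001L05Rik (0.950). Over 26 samples Mageb16 was most like the replication licensing factor Cdt1 (r = 0.978), the mismatch repair gene Msh6 (0.975) and Wdr5 (0.971). Over 10 samples Mael was most like Hormad1 (r = 0.990), Tdrd12 (0.989) and Zbtb32 (0.984), and Sycp3, mostly at very low values, like Pknox1 (0.908), Cngb1 (0.907) and Syndig1 (0.903).

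Among the 6 genes themselves, Piwil2 had r = 0.909 with Dazl over 23 samples and 0.944 with Mageb16 over 26 samples, and Mael had r = 0.984 with Dazl over 10 samples. Ddx4 stood apart, with r = 0.468 to Piwil2 over 30 samples and 0.362 to Mageb16 over 26 samples. The genes most like Ddx4 were Tead2 (r = 0.821), Slc38a3 (0.798) and Prr14l (0.798) over 30 samples.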

How the data were processed

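The deposited table holds 1 column of normalized intensity per sample on a linear scale for 26423 probes. Per the labels, total RNA was labelled with Cy5 and hybridised to the Mouse OneArray v2. Per the series' design text, the authors normalized 5 sets separately, and each sample had 3 replicates (sets 1, 2 and 4) or 2 (sets 3 and 5), which appear as 1 value. Whether replicates were separate cultures is not stated, so the p-values measure the spread between samples. Scanner, software, background correction and the filter on probes are not stated by the labels or the table. The number of arrays limits the precision.

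Probes were named from the platform annotation (21873 with 1 gene, 4547 unnamed). Intensities were converted to log2 with 1e-04 as the floor, and the probe with most values, then the highest mean, stood for a gene. Differences were fitted with limma 3.58.1 (R 4.3.3) with group and set as terms, adjusted by Benjamini and Hochberg over all features of a comparison, and called at an adjusted p under 0.05 and 2-fold. Features needed at least 2 sets holding both groups (1 for SKM-FSK iPSC) and 3 residual degrees of freedom. The fit was tested on simulated data. The rule for named genes took up to 5 called and 2 uncalled genes per list by size of change, and 3 most similar genes per member. The members and lists were chosen with earlier results of these data known. Alternatives covered floor, offset, scaling, filters, the set term, variance prior, cell lines, single samples, sets and a replicate block. Counts in the lists without set 3 or 5 and the fit with 2 residual degrees of freedom were added after seeing the data. ESC and MEF samples with the same number in their titles had correlations of their deviations of 0.42, −0.30 and 0.15 over 10732 features, so the numbers were not taken to pair samples. Python 3.11.15 with pandas 2.3.3 and numpy 2.4.6 served for tables.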

Additional observations from a re-analysis of the deposited data

Results flagged for a closer look

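The Mageb16 intensity of MEF3 was 1.83, far below the other 5 somatic samples that measured the gene. Its gap to the nearest other sample on the log2 scale was 0.661 of the whole range of the 6 samples, above Dixon's 95% value. This was 1 of 10 groups tested, and chance flags about 1 in 20. Set 5 was also the set in which values under 10 were common, at 12.8 to 13.7% of probes. Its levels were normalized apart from the other sets. By rank within a sample, MEF3 was not the lowest for Mageb16, with 2.49% of its features below the gene. That share was lower in MAF (0.198%) and ADSC (0.0709%). It was higher in MEF1, MNF and MEF2, at up to 10.5%. Without MEF3 the Mageb16 difference between CiPSC and somatic samples was 7.00 on the log2 scale.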

How the results depend on the processing

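All called differences of Dazl, Piwil2 and Mageb16 from somatic samples kept their direction and their call under every alternative run, from 5.02 to 5.89 (log2) for Dazl, 4.31 to 4.97 for Piwil2 and 6.72 to 8.15 for Mageb16 in CiPSC. The uncalled Ddx4 difference changed sign in CiPSC with MEF as the only somatic samples (−0.28) and without set 2 (−0.19), and in ESC with MEF only (−0.37), with R1 as the only ESC line (−0.076) and without set 2 (−0.49), where leaving out 1 sample gave −0.076 to 0.64. In OSKM iPSC it was −0.17 without a set term, −0.13 with the replicate block and −0.090 to 0.34 with 1 sample left out. Without a set term Ddx4 in SKM-FSK iPSC was called (2.61) and 5 of 6 genes were called in place of 3. Against ESC, uncalled Mageb16 in CiPSC was 0.0031 with the floor of 16, 0.0070 with only the 2 groups in sets that hold both, 0.34 without set 5, 0.097 with the replicate block and −0.47 to 0.60 with 1 sample left out, the highest without ESC5, and Ddx4 was −0.016 without ESC5 and up to 0.64 without ESC2. The share of features called in either direction was 17.3% without a set term in ESC against somatic samples (29.3% with it), 10.4% in OSKM iPSC with only the 2 groups (22.0% with all), and 6.64 to 22.6% in SKM-FSK iPSC with 1 sample left out (15.2% with all, the highest without MEF3; a lone line is assumed to vary like the other groups). In CiPSC against ESC it was 0.0121% without a set term, 0.0127% with only the 2 groups, 0.322% with R1 only, 0 to 0.322% with 1 sample left out, 0.00618, 0.265, 0 and 0.00606% without sets 1, 2, 3 and 4, and 0.00635% with the replicate block. With the floor of 16, differences from MEF3 at days 12, 20 and 32 were 0, 0.18 and 0.34 for Mageb16 and 0 for Sycp3. The cause of these moves was not tested. The replicate block changed no other call.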
